A study of Ananas comosus with 3 samples.

Results

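Defence and abiotic stress proteins of pineapple (Ananas comosus) fruit were followed between mature green and mature yellow flesh. They were found by words in the deposited gene descriptions, namely chitinase, pathogenesis, disease resistance, lectin, germin, dehydration, wound, salt and stress, without kinases, transcription factors, transporters, heat shock proteins and auxin or ethylene names. This gave 17 contigs, groups of cDNA clones of one transcript, among 7773 features on the array, and the 17 contigs held 66 of the 9278 spotted clones. Thaumatin, defensin, dehydrin, late embryogenesis, drought and cold were searched as well and matched no clone. Each of 3 slides was hybridized with labeled cDNA of both stages, unripe mature green and ripe mature yellow fruits of the field-grown variety Smooth Cayenne, clone C10. RNA came, per the methods, from the middle part of the flesh with skin and pith removed. On replicates 1 and 3 Cy3 marked mature yellow and Cy5 mature green cDNA, and replicate 2 was a dye swap. The clones came from libraries of fruit, root tip, root, nematode-infected root and gall, so a contig on the array need not be expressed in flesh. The methods do not say which slides share an RNA extract, and all p-values measure the spread between 3 hybridizations, which may be technical.

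Plants meet fungi and insects with proteins that attack or bind the invader. Chitinases cut the chitin of fungal walls, pathogenesis-related proteins build up at infected sites, lectins bind mannose on foreign surfaces, and resistance proteins of the RPP13 kind recognize pathogen effectors inside the cell in Arabidopsis. Germin-like proteins are stable glycoproteins of the cell wall, some of them with oxalate oxidase or superoxide dismutase activity. RD22 is a BURP domain protein whose gene in Arabidopsis is switched on by drought and abscisic acid. In several fruits, chitinases are made during ripening without any infection.

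The values are log2 ratios of mature yellow over mature green after background correction and loess normalization within each slide, so 1 unit is a 2-fold difference and 0.58 is 1.5-fold. Of the 17 contigs, 13 had a higher and 4 a lower mean in mature yellow flesh, and 13 had means within 0.32 of 0 in either direction. The largest differences were those of 2 RD22 contigs, lower in mature yellow flesh, and of an acidic class III chitinase and a pathogenesis related protein, both higher. Limma's moderated test with Benjamini-Hochberg adjustment over all features called 0 of the 17 contigs at 1.5-fold and an adjusted p under 0.05, where 0.129% of all features were called. A mean of 1.5-fold or more was found for 4 contigs (5.24% of all features), 2 of them higher (3.18% of all features) and 2 lower (2.06% of all features). An unadjusted limma p under 0.05 was reached by 4 contigs (8.95% of all features), but 3 of them hold clones that had been chosen by their ratios on these slides, so nothing is read from that count. The direction was the same on all 3 slides for 10 contigs, against 35.1% of the features measured on all 3 slides. These 10 include the same 3 contigs with chosen clones, so nothing is read from this count either. The median log2 ratio of the 17 contigs was 0.09, and that of all features 0.01. In whole flesh, a smaller share of cells that make a transcript and less of it in each cell cannot be told apart.

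**Figure D1:**
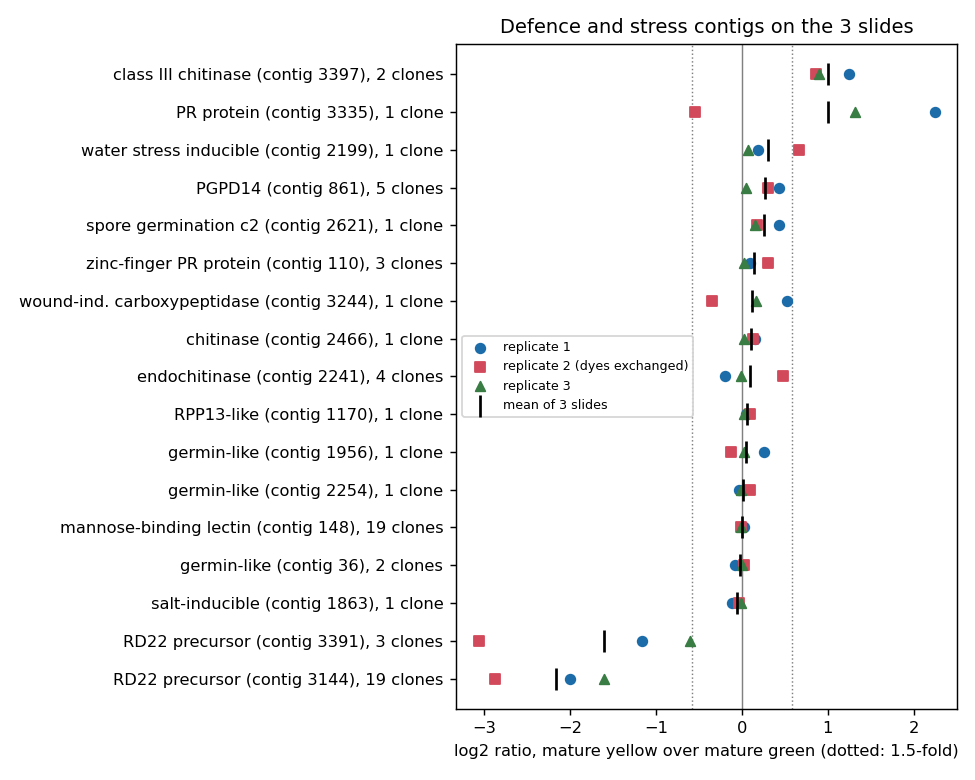
Log2 ratio of mature yellow over mature green flesh for each of the 17 contigs on replicates 1, 2 and 3 (points), with the mean of the slides (bar) and dotted lines at 1.5-fold. Both RD22 contigs lie left of 0 on all 3 slides, the class III chitinase lies right of 0 on all 3, and the pathogenesis related protein falls on both sides.

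A contig number reached a clone by one of 2 ways, and this bears on every large ratio. Numbers in the full files belonged to 45 of the 66 clones, sequenced before the array was used. The other 21 were numbered only in the files of spots that passed the 2xSD test. By the methods these clones were sequenced because they differed by 1.5-fold or more on these same slides, so their ratios are given as a description without a test. Across the whole array, 94.7% of the 413 clones numbered in this way had a mean of 1.5-fold or more, against 9.1% of all clones. The 21 clones belonged to 3 contigs, 18 of them to RD22 contig 3144, 2 to RD22 contig 3391 and 1 to chitinase contig 3397, which are 3 of the 4 contigs at 1.5-fold. With the earlier numbers alone, 16 contigs could be tested and limma called 0 of them (2.78% of all features so numbered were called). Of these 16, 1 reached 1.5-fold (9.06% of all features so numbered) and 1 an unadjusted limma p under 0.05 (11.6%). Their median log2 ratio was 0.10, beside 0.01 for all features so numbered.

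The later clones were also the brighter ones as a group. They come from spots that passed the 2xSD test, so their brightness may not be independent of how they were chosen. Some earlier clones were bright too, such as JBW044F09 with 2388 intensity units in the yellow channel on replicate 1. A clone is called above the blank spots here when its signal over the local background exceeded the median of the blank spots by 2 median absolute deviations, scaled as an SD. That limit was 9.90, 5.93 and 2.32 intensity units in the yellow channel and 6.93, 10.9 and 2.18 in the green channel on replicates 1, 2 and 3. One channel or the other was above it on all 3 slides for all 21 clones numbered later and for 18 of the 45 numbered earlier, against 73.3% of all clones on the array. No channel on any slide was above it for 6 clones. The offset of 50 intensity units in the background correction exceeds the signal of the dim clones and pulls their ratios toward 0, so a ratio near 0 in a dim clone does not show an equal level.

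**Figure D2:**
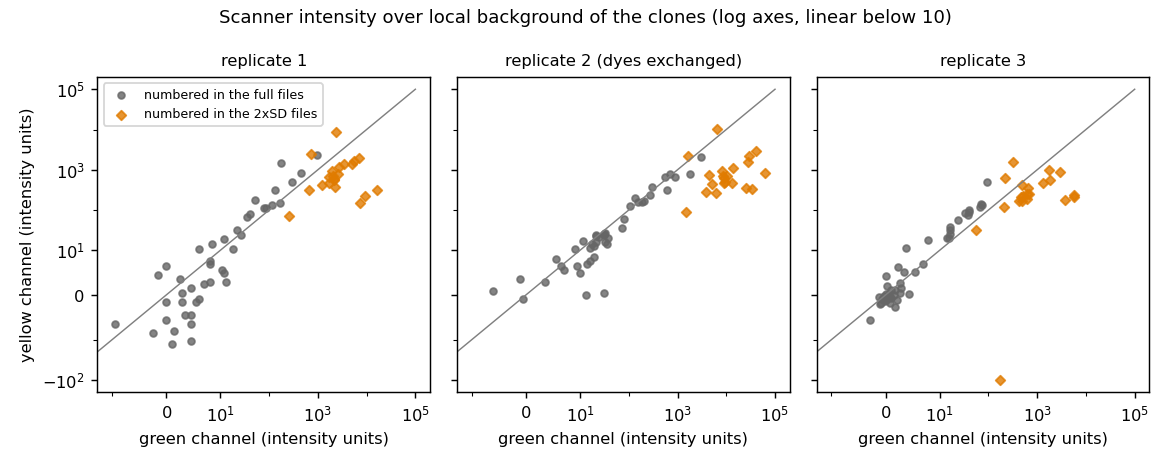
Signal of the member clones over local background in the green (x) and yellow (y) channels, in intensity units on log axes that are linear below 10, one panel per replicate, with the line of equal signal. The 21 clones numbered in the 2xSD files (diamonds) are bright and most lie below the line, while many of the 45 clones numbered earlier (circles) lie around 10 units or less.

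RD22 was the stress protein with the largest ratios. Contig 3144, a putative dehydration-responsive RD22 precursor on 19 clones, had log2 ratios of -2.01, -2.87 and -1.61 on replicates 1, 2 and 3, a mean of -2.16 ± 0.65 (SD, n = 3 slides). That is a 4.48-fold lower level in mature yellow flesh. It was lower on every slide, and the slide with exchanged dyes lay furthest from 0. Contig 3391, with the same description on 3 clones, had -1.16, -3.06 and -0.60, a mean of -1.61 ± 1.29 (SD, n = 3 slides). It shared the direction, and again replicate 2 was the lowest. On replicate 3 the value of contig 3391 also averages in the dim clone JBW005C01 (-0.04), which has no value on replicates 1 and 2. Its later clones JBW007A07 and JBW014H11 stood at -1.26 and -0.51 on replicate 3. Every mean of contig 3391 that includes this slide is thus pulled toward 0. Without replicate 2 the mean of contig 3391 was -0.88 and that of contig 3144 -1.81. Both means rest almost wholly on clones that were chosen for differing on these slides.

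The 18 later clones of contig 3144 fell into separate ranges, although clones of one contig should report one transcript. A group of 3 clones, JBW017E12, JBW017A04 and JBW008A01, had means of -4.95, -4.89 and -4.86, which are 31.0-fold, 29.7-fold and 29.1-fold. In JBW017A04 the green channel stood 16140, 62250 and 5678 intensity units over background on replicates 1, 2 and 3, and the yellow channel 317.5, 840 and 236.7. These 3 clones were among the brightest members in mature green flesh, and their ratios lay between -5.54 and -4.02 on every slide. A second range of 14 clones had means from -2.25 to -1.58, with a median of -2.0. In JBW007G04, the brightest of them, the green channel gave 6932, 41360 and 2918 units and the yellow channel 2013, 2850 and 884. No clone lay between the 2 ranges, and within the second one 13 of 14 clones had their lowest ratio on replicate 2 and 12 of 14 their highest on replicate 3.

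One later clone went the other way. JBW009A02 had log2 ratios of 1.57, 1.09 and 0.91, a mean of 1.19 ± 0.34 (SD, n = 3 slides) or 2.28-fold higher in mature yellow flesh. Its yellow channel read 2530, 2172 and 625.5 units and its green channel 736.5, 1634 and 214.7. It was higher in mature yellow flesh on all 3 slides, against 17 clones of the same contig that were lower on all 3. Why clones given one contig number differ in direction and size was not tested, and the ranges were read from the values after they were seen.

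The clones of both RD22 contigs that were numbered before the array was used showed no such difference. JBW005C08 of contig 3144 had 0.14, 0.04 and -0.02, a mean of 0.05 ± 0.08 (SD, n = 3 slides; adjusted p = 0.850 from limma in the fit with the earlier numbers). Its channels stood between -6.00 and 3.50 units over background, and it was above the blank spots on 0 slides. JBW005C01 of contig 3391 was measured on replicate 3 alone, at -0.04, with 0.15 units in the yellow and 4.26 in the green channel. These clones gave almost no signal in either stage, so they do not bear on the direction. Of the 16 clones whose names begin with JBW005, 1 was above the blank spots on all 3 slides, and their median signal in the brighter channel was 4.50, 14 and 0.54 units on replicates 1, 2 and 3. Among the 1152 clones named JBW006 to JBW017, which hold all 21 later clones, 94.7% were above the blank spots on all 3 slides, and the medians were 436, 1080 and 190.

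**Figure D3:**
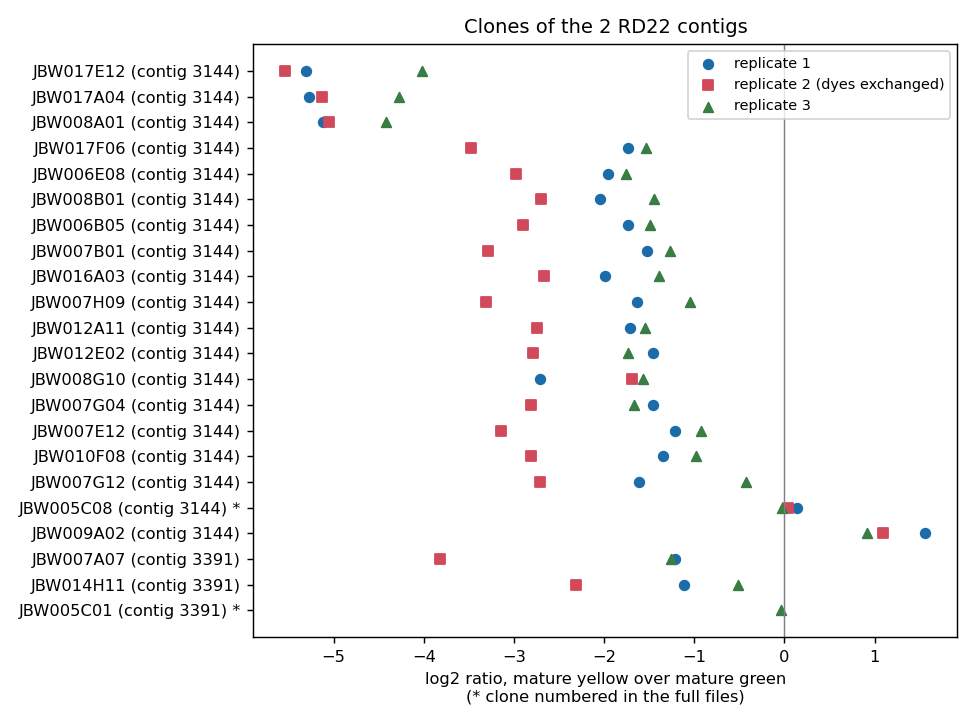
Log2 ratio of mature yellow over mature green flesh of the 22 clones of both RD22 contigs on replicates 1, 2 and 3, ordered by mean within a contig, with an asterisk at clones numbered in the full files. In contig 3144, 3 clones lie below -4 on every slide, 14 between -3.47 and -0.43, the earlier clone at 0 and JBW009A02 to the right of 0.

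Chitinases were carried by 3 contigs, of which the class III enzyme had the largest ratio. Contig 3397, an acidic class III chitinase, had log2 ratios of 1.24, 0.87 and 0.90, a mean of 1.0 ± 0.21 (SD, n = 3 slides) or 2.01-fold higher in mature yellow flesh. The mean joins a pair of clones that differ. JBW012D10, numbered later and so chosen by its ratio, read 8888, 10560 and 1558 units in the yellow channel and 2400, 6312 and 325.3 in the green channel. Its log2 ratios were 2.23, 1.69 and 1.79, a mean of 1.90 ± 0.29 (SD, n = 3 slides) or 3.75-fold, and it was the brightest member in mature yellow flesh on every slide. The slide with exchanged dyes had the same direction and a like size. JBW005B11, numbered earlier, read 6.50, 16.5 and 2.09 units in the yellow and 0, 21.0 and 0.24 in the green channel. Its ratios were 0.25, 0.05 and 0.01, a mean of 0.10 ± 0.13 (SD, n = 3 slides; adjusted p = 0.723 from limma in the fit with the earlier numbers). That clone is another of the dim JBW005 clones, so for this chitinase too no clone free of the choice by ratio was bright.

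The other chitinases were measured by clones that had been numbered earlier and were not chosen by their ratios. Contig 2241, a putative endochitinase on 4 clones, had log2 ratios of -0.20, 0.47 and -0.01, a mean of 0.09 ± 0.35 (SD, n = 3 slides; adjusted p = 0.915 from limma). All 4 clones were above the blank spots on all 3 slides, with 114 to 152.5 units in the yellow and 77.0 to 163.5 in the green channel on replicate 1. All 4 lay highest on the slide with exchanged dyes, between 0.25 and 0.72, and the mean turned to -0.10 without it. Contig 2466, described as chitinase on 1 clone, was dim, with 19.0, 22.5 and 17.9 units in the yellow and 12.0, 21.0 and 7.87 in the green channel. Its ratios were 0.16, 0.13 and 0.03, a mean of 0.11 ± 0.07 (SD, n = 3 slides; adjusted p = 0.657 from limma).

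Among pathogenesis-related and resistance proteins, the brightest gave ratios that disagreed between slides. Contig 3335, a putative pathogenesis related protein on 1 earlier clone, read 1431, 764 and 504.3 units in the yellow channel and 176.5, 1824 and 95.7 in the green channel. The log2 ratios were 2.24, -0.55 and 1.31. It was higher in mature yellow flesh on replicates 1 and 3 and lower on replicate 2, the slide with exchanged dyes, so the Cy3 channel was the brighter one on all 3 slides. The mean of 1.0 ± 1.42 (SD, n = 3 slides) was smaller than its SD (adjusted p = 0.702 from limma). With a dye term in the fit the mean was 0.61 (adjusted p = 0.253 from limma), and without replicate 2 it was 1.78 (adjusted p = 0.142 from limma). Without replicate 2 mature yellow is Cy3 on every slide, so stage and dye cannot be told apart in the value of 1.78. Contig 3335 was the contig that reached 1.5-fold with the earlier numbers alone.

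Contig 110, a putative zinc-finger pathogenesis-related protein on 3 clones, had log2 ratios of 0.09, 0.30 and 0.03, a mean of 0.14 ± 0.14 (SD, n = 3 slides; adjusted p = 0.666 from limma). Its 3 clones were above the blank spots on every slide, with means of 0.04, 0.16 and 0.23. Contig 1170, a putative disease resistance RPP13-like protein on 1 clone, read 1.5, 21.5 and 11.3 units in the yellow and 4.50, 24.0 and 3.86 in the green channel. It was not above the blank spots on replicate 1, and its mean of 0.06 ± 0.03 (SD, n = 3 slides; adjusted p = 0.819 from limma) is that of a dim clone.

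The mannose-binding lectin, contig 148, filled 19 clones and was close to the level of the blank spots in both stages. Over its clones, the yellow channel had medians of -3.00, 7.5 and -0.36 units over background on replicates 1, 2 and 3, and the green channel 4.50, 16.0 and 0.85. One channel or the other was above the blank spots on all 3 slides for 2 clones, on 1 or 2 slides for 12 and on none for 5. The log2 ratios were 0.03, -0.01 and -0.01, a mean of 0.00 ± 0.02 (SD, n = 3 slides; adjusted p = 0.991 from limma), with clone means from -0.07 to 0.09 and 9 of 19 clones above 0. At this signal no difference was detectable, which is not a measurement of equal levels. Of the 19 clones, 18 have names from JBW098 to JBW102. The 480 clones so named were dim as a group, with 38.3% above the blank spots on all 3 slides, against 73.2% of the 9278 clones.

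Germin-like proteins were dim as well. Contig 36 on 2 clones had log2 ratios of -0.08, 0.03 and 0.00, contig 1956 on 1 clone 0.26, -0.12 and 0.03, and contig 2254 on 1 clone -0.03, 0.10 and -0.01. Their means were -0.02 ± 0.06, 0.05 ± 0.19 and 0.02 ± 0.07 (SD, n = 3 slides), with adjusted p of 0.946, 0.915 and 0.956 from limma. Directions differed between slides in all 3 contigs. With plain background subtraction, contig 1956 was at 2.73 and contig 2254 at -0.39 (adjusted p = 0.286 and 0.739 from limma), so the means near 0 depend on the background correction. The brightest of them read at most 35.5 units in any channel, and contig 2254 alone was above the blank spots on all 3 slides.

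**Figure D4:**
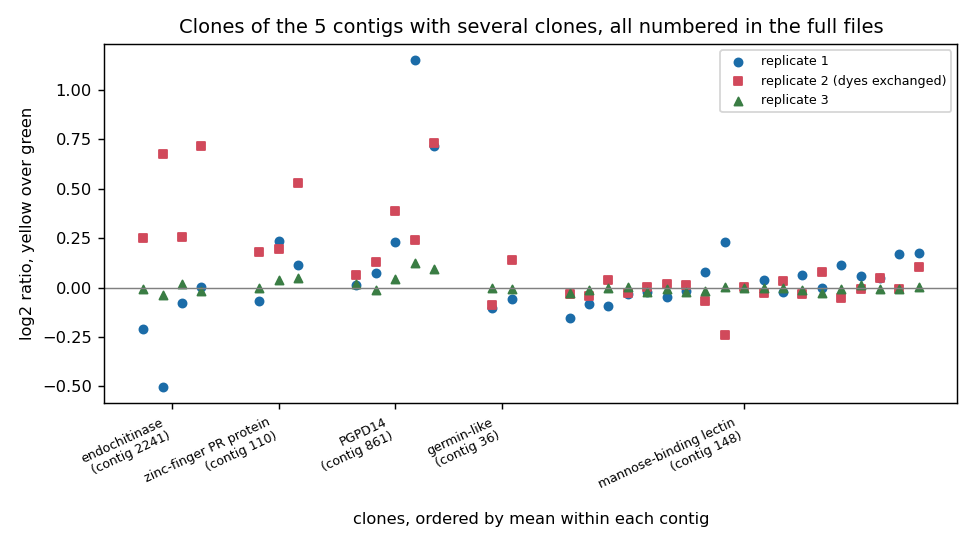
Log2 ratio of mature yellow over mature green flesh of single clones on replicates 1, 2 and 3, for the 5 contigs with several clones that were all numbered in the full files. The lectin clones lie between -0.24 and 0.23 and those of the endochitinase and PGPD14 spread between slides, with the highest value, 1.15, in a PGPD14 clone on replicate 1.

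A pair of contigs entered the list because their descriptions hold the word germination. Contig 861, a putative PGPD14 protein described as pollen germination related, had log2 ratios of 0.44, 0.31 and 0.05 over 5 clones, a mean of 0.27 ± 0.20 (SD, n = 3 slides; adjusted p = 0.566 from limma). The clone means ran from 0.03 to 0.51, and all 5 were above 0. JBW044F09, the brightest, read 2388, 2076 and 140.1 units in the yellow and 975.5, 2978 and 68.9 in the green channel, with ratios of 1.15, 0.24 and 0.12. Contig 2621, named spore germination protein c2, gave 841, 679 and 85.6 units in the yellow and 456.5, 905 and 33.1 in the green channel on 1 clone. Its ratios were 0.44, 0.17 and 0.15, a mean of 0.25 ± 0.16 (SD, n = 3 slides; adjusted p = 0.543 from limma), and it was the contig with an unadjusted limma p under 0.05 (0.0477) in the fit with the earlier numbers. Both contigs were higher in mature yellow flesh on every slide by less than 1.5-fold.

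Of the contigs named for water, salt or wounding, none reached 1.5-fold. Contig 2199, similar to a water stress inducible protein, read 486, 784.5 and 56.5 units in the yellow and 289, 713.5 and 23.7 in the green channel. Its log2 ratios were 0.19, 0.66 and 0.07, a mean of 0.31 ± 0.31 (SD, n = 3 slides; adjusted p = 0.606 from limma). It was higher in mature yellow flesh on all 3 slides, and the spread between them was as large as the mean, which was 0.13 without replicate 2 and 0.42 without replicate 3. Contig 3244, a wound-inducible carboxypeptidase of the kind induced in tomato leaves, read 322, 307 and 98.7 units in the yellow and 131, 607.5 and 39.4 in the green channel. Its ratios of 0.53, -0.34 and 0.17 changed direction on the slide with exchanged dyes, and their mean was 0.12 ± 0.44 (SD, n = 3 slides; adjusted p = 0.912 from limma). Contig 1863, similar to a salt-inducible protein, was close to the blank spots, with at most 32.0 units in any channel, and had ratios of -0.12, -0.04 and -0.01, a mean of -0.05 ± 0.06 (SD, n = 3 slides; adjusted p = 0.852 from limma).

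Other defence and stress genes, listed by keyword, added 5 features, of which limma called 0. A pair of glucanases, which cut glucans of cell walls, had mean log2 ratios of 0.02 and 0.01, and lipoxygenases, which start the oxylipin route to jasmonate, had 0.00 and -0.12. The keyword does not separate defence glucanases from others, and contig 2970 is described as an endo-1,4-beta-glucanase. Above the blank spots on all 3 slides were 1 of 2 glucanase clones and 5 of 8 lipoxygenase clones. Catalase 2, contig 2778, which removes hydrogen peroxide, had -1.41, -1.53 and -0.40, a mean of -1.11 ± 0.62 (SD, n = 3 slides; adjusted p = 0.414 from limma). It was lower in mature yellow flesh on all 3 slides, and its only clone was numbered before the array was used. With plain background subtraction in place of normexp the mean was -2.95 and passed the test (adjusted p = 0.0304 from limma). The keywords for protease inhibitors, latex and PR-10 proteins, polyphenol oxidase or laccase, annexin or remorin, and snakin or GAST matched 0 further descriptions in the full files. Many clones are described there only as unsequenced and could not be matched, so this does not show that such genes are missing from the array.

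Names of flesh and green tissue proteins were looked up as a description of the samples. Matches by name cannot show that other tissue was absent, and this was not tested. Bromelain and metallothionein descriptions marked 5 features on 91 clones, and 82 of these clones were above the blank spots on all 3 slides. The lowest of these markers was fruit bromelain contig 3033, at -3.57 with 9 of its 10 clones numbered later. The highest was metallothionein contig 180, at 0.44 ± 0.56 (SD, n = 3 slides; adjusted p = 0.665 from limma). Between them lay bromelain contigs 123 and 2985 and metallothionein contig 182, at -0.25, -0.06 and -0.17 (adjusted p = 0.591, 0.854 and 0.634 from limma). Chlorophyll binding protein and photosystem names matched no feature, and rubisco matched 1, a rubisco subunit binding protein whose mean was 0.29 ± 0.22 (SD, n = 3 slides; adjusted p = 0.566 from limma). Across all features the slides correlated with r = 0.42 between replicates 1 and 2, 0.67 between 1 and 3 and 0.37 between 2 and 3. The slide with exchanged dyes was thus the one least like the others, over features that are not independent of each other.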

How the data were processed

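The authors scanned the slides, edited spots in the scanner software and deposited spot and background intensities of both channels as scanned, without correction or normalization (medians for replicates 1 and 2, means for replicate 3). The authors also deposited mean intensities of spots past their 2xSD test, with further contig numbers, and a table of processed values, a score that is the ratio or minus its reciprocal. Replicate 2 of that table runs Cy3 over Cy5 (r = -0.86 with the scanner ratios), so its sign was turned, and its replicate 3 is not centred (median 1.03).

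Computation used R 4.3.3 with limma 3.58.1, and figures matplotlib 3.10.9 in Python 3.11.15. Abnormal spots (318, 308 and 547 on the 3 slides) were left out of 18556 element spots per slide and the controls. Intensities were corrected by normexp (offset 50) and normalized by loess, with blank and control spots at weight 0. All ratios then ran yellow over green, and duplicate spots and then the clones of a contig were averaged. Features on at least 2 slides entered a limma fit of the mean with eBayes (1.65 prior degrees of freedom), and p-values were adjusted over 7773 features by Benjamini-Hochberg. An exact permutation of the signs of 3 slides cannot give a two-sided p under 0.25, and the number of arrays limits the precision. The scripts were tested on simulated data. The number of columns of per-sample values left unused was 0.

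Members and lists were chosen with earlier results of these data known. Contigs to be named were those at 1.5-fold or more, those in the supplementary list of the study and the brightest of each keyword; the others are given so that every member is accounted for. Alternatives covered background, normalization, dim spots, the fit, the feature, contig numbers, processed values, thresholds, the whole-word rule and each replicate left out.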

Additional observations from a re-analysis of the deposited data

How the results depend on the processing

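No contig was called in the main analysis. With an offset of 0, plain background subtraction or a dye term, 1 of 17 was called, RD22 contig 3144 each time (-2.48, -2.82 and -2.34; 0.437%, 0.824% and 0.823% of all features were called). The calls numbered 2 of 10 over the spots of the 2xSD files (5.17% of all features), 3 of 10 over their mean intensities (5.41%), 4 of 12 in the deposited table (6.11%) and 4 of 65 with each clone as a feature (2.39%), all 4 being clones numbered in the 2xSD files. At an unadjusted limma p under 0.05 with 1.5-fold, 3 were called, all of them contigs with clones chosen by their ratios. The share of all features was counted only without the fold limit (8.95%), so nothing is read from that count. By the methods' limit of 0.1 in an ordinary test with 1.5-fold, 2 were called, beside 212 of the 7773 features. After adjustment that test called 0 of the members and 0 of all features, so this 0 is no result about these contigs. Apart from the pathogenesis related protein, contig 3335, in the deposited table (1.55), all contigs called under any alternative hold clones chosen by their ratios, so these calls are a description and no test. The 4 contigs at 1.5-fold became 8 with plain subtraction (26.5% of all features) and 22 of 65 clones (9.1%). They became 1 of 16 with full-file numbers (9.06%) and 7 of 12 in the deposited table (27.1%). The 22 clones include every clone chosen by its ratio, and the only other is that of contig 3335, so nothing is read from that count. The median of 0.09 moved to 0.17 with an offset of 0, 0.29 with plain subtraction, 0.037 without correction, 0.21 over the 2xSD spots (all features 0.16), 0.003 over clones and 0.50 in the deposited table (all features 0.17). Catalase was called with plain subtraction, the 1 call among the other lists. Those lists were scored only in the main analysis, with plain subtraction and with median centring.

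Leaving out each replicate gave 0 calls (0% to 0.0651% of all features), 3 to 4 contigs at 1.5-fold (5.42% to 7.03%) and medians of 0.061 to 0.092. With 2 slides the test called almost no feature on the array, so the 0 calls say little about these contigs. Contig 3335 ran from 0.38 to 1.78. Without replicate 2, the only dye swap, mature yellow is Cy3 on every slide, so stage and dye cannot be told apart. Means changed direction for contig 148 (-0.010 to 0.009), 1956 (-0.048 to 0.141), 2241 (-0.10 to 0.23), 2254 (-0.023 to 0.043), 3244 (-0.09 to 0.35) and 36 (-0.043 to 0.011). Other reversals were those of contig 148 with plain subtraction (-0.27), no correction (-0.001), scale normalization (-0.003), a dye term (-0.001) and spots above the blank spots (-0.015); of contig 2254 with plain subtraction (-0.39), no correction (-0.003), median centring (-0.004) and scaling (-0.001); and of contig 1956 above the blank spots (-0.048), 36 without correction (0.02), 110 and 2241 over the 2xSD mean intensities (-0.122 and -0.034) and 3144 with full-file numbers (0.053). The cause was not tested, except that full-file numbers leave contig 3144 with 1 clone. Among features at 1.5-fold, 60.7% were higher, against 49.3% with plain subtraction, 74.1% without correction, 72.6% with scaling and 72.2% in the deposited table. The ratio within each slide already pairs the stages. Beyond that, no paired analysis was possible because each replicate is 1 slide and leaves no further block to fit. Of the 45 earlier clones, 27 were not above the blank spots on all slides. Spots above the blank spots alone gave 0 calls (0.255% of all features) and 4 contigs at 1.5-fold (5.8%). All but contig 3335 of these 4 hold clones chosen by their ratios.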

Other observations

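In the authors' table of processed values, which gives one value per contig and slide, 12 of the 17 contigs had values on at least 2 slides. Contig 3144 of RD22 stood there at -0.79, -3.48 and -1.29 on replicates 1, 2 and 3 on the log2 scale, and contig 3391 at -3.32, -3.24 and -0.65. Both were lower in mature yellow flesh on all 3 slides. The class III chitinase contig 3397 was at 2.29, 0.34 and 2.23, and the pathogenesis related protein contig 3335 at 2.71, -0.44 and 2.37. The latter thus again lay below 0 on the slide with exchanged dyes alone. The values of replicate 3 of that table have a median of 1.03, so values of that slide are to be read against it. Those of contigs 3397 and 3335 lay above it.

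Among the clones outside the list, the earlier clone of fruit bromelain contig 3033 had a mean log2 ratio of -4.98, close in size to the 3 RD22 clones at -4.95, -4.89 and -4.86, while the mean over the 10 clones of that contig was -3.57. This resemblance was seen in the values, and whether the 3 clones carry the sequence of their contig was not tested.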
